A study of Oryctolagus cuniculus with 20 samples.

Results

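Chromatin modifying and remodelling genes encode the enzymes that add or remove chemical marks on histones, the motors that move nucleosomes, and the proteins that read marks or bend DNA. The genes described here were selected on measured values of these same valves. They are the symbols in the study's supplementary list of genes differentially expressed against non-treated valves that begin with KDM, KMT, SETD, HDAC, SIRT, CHD and a digit, SMARC, ARID, BRD, BAZ, EP300, CREBBP, TET and a digit, DNMT, KAT, ING and a digit, HMG, CBX or PHF. Of 50 such symbols, 39 had an Ensembl identifier found in the count table. They stand for 40 of the 23669 genes counted, because SMARCA1 had 2 identifiers. All 40 passed the filter on low counts that left 8683 genes for testing. Every difference from non-treated valves below therefore describes genes that were chosen for such differences, and none of these differences is offered as a test. Symbols came only from that list, so chromatin genes that the study did not list are absent.

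RNA was sequenced from whole tricuspid valves of 20 New Zealand white rabbits, all female, with 5 rabbits in each of 4 groups. Non-treated rabbits drank water, and the others received serotonin at 80 mg/kg/day, pergolide at 0.5 mg/kg/day or dexfenfluramine at 20 mg/kg/day by mouth for 16 weeks. Pergolide is an ergot-derived dopamine agonist and dexfenfluramine an appetite suppressant that releases serotonin. Both have been tied to heart valve disease in patients, and the study asked how their effects on the valve compare with those of serotonin itself. Doses are those of the sample labels and the study's methods, and the study's results text gives a lower dexfenfluramine dose. The 3 agents were given at different doses, so their values stand side by side and say nothing on potency.

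Total counts per valve ran from 3247091 to 5921025. The most abundant gene took on average 40.7% of them in non-treated, 35.9% in serotonin, 32.9% in pergolide and 29.1% in dexfenfluramine valves. Factors that scale the libraries for composition ran from 0.58 in non-treated 4 to 1.72 in dexfenfluramine 3. Levels are given as counts scaled to library size (CPM), and differences are on the log2 scale. Values for valves are listed in the order of replicate numbers 1 to 5, which the labels do not describe as pairing valves between groups. Dexfenfluramine 3 and non-treated 3 stood apart, with a median correlation of 0.946 and 0.954 to the other valves of their own group over all genes tested, and counts of the chromatin genes without both valves are given beside those with all 20. The word called means an adjusted p under 0.05 in edgeR's quasi-likelihood test, with p adjusted by the Benjamini-Hochberg method over all 8683 genes. P-values rest on the spread between separate valves within groups, 5 per group. That spread was estimated in 1 fit of all 20 valves, so groups outside a comparison also entered it. The valves were dissected tissue with several cell types, in which fewer cells of a type and less RNA per cell cannot be told apart.

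As background, acetyl groups placed on histone tails by acetyltransferases loosen chromatin, and deacetylases remove them. Methyl groups are placed and removed by methyltransferases and demethylases, and act for or against transcription according to the lysine that carries them. Remodelling motors of the SWI/SNF, ISWI and CHD families spend ATP to slide or evict nucleosomes, and several of their subunits are needed for the heart and its valves to form in the embryo.

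Against non-treated valves, the log2 fold change was below 0 for 30 of the 40 genes under pergolide, for 29 under dexfenfluramine and for 14 under serotonin, whether called or not. Under pergolide 22 were called, 5 higher and 17 lower, where 12.1% of all genes tested were higher and 12.7% lower. Under dexfenfluramine 25 were called, 7 higher and 18 lower, beside 13.5% and 15.4% of all genes. Under serotonin 1 was called, higher, beside 1.04% of all genes higher and 0.15% lower. The median log2 fold change of the 40 genes was 0.06 for serotonin, -0.30 for pergolide and -0.29 for dexfenfluramine, and over all genes it was 0.01, 0.02 and 0.03. Because the study chose the genes by these contrasts, nothing is read from the shares. The 3 comparisons also share the 5 non-treated valves.

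The genes called higher for pergolide were the demethylases KDM3B, KDM5B and KDM6A, the deacetylase HDAC7 and the SWI/SNF subunit SMARCD2. Those called higher for dexfenfluramine were the same 5 with KDM5A and HDAC5. Of these, KDM3B lost its pergolide call with non-treated 2, 4 and 5 and pergolide 2, 4 and 5 left out in turn (highest adjusted p 0.107) and its dexfenfluramine call with non-treated 2, 4 and 5 and dexfenfluramine 4 left out in turn (highest adjusted p 0.0745), HDAC5 its dexfenfluramine call with non-treated 1, 2 and 3 and dexfenfluramine 1, 2 and 3 left out in turn (highest adjusted p 0.110), and SMARCD2 its pergolide call with non-treated 1, 2, 4 and 5 and pergolide 3, 4 and 5 left out in turn (highest adjusted p 0.136). The pergolide call of SMARCD2 was also lost with each processing alternative but the replicate block, at 0.12 (adjusted p = 0.678) with svaseq, and its dexfenfluramine call with svaseq, at 0.16 (adjusted p = 0.583). All other calls of these higher genes were lost with svaseq too, except that of KDM5B for pergolide. For pergolide and dexfenfluramine KDM3B was then at 0.22 and 0.21, KDM6A at 0.16 and 0.19 and HDAC7 at 0.72 and 0.65. For dexfenfluramine KDM5A was at 0.25, KDM5B at 0.30 and HDAC5 at 0.07. Without non-treated 3 and dexfenfluramine 3, 3 genes were called for serotonin, 26 for pergolide and 25 for dexfenfluramine, beside 5.53%, 28.4% and 28.3% of all genes.

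**Figure D1:**
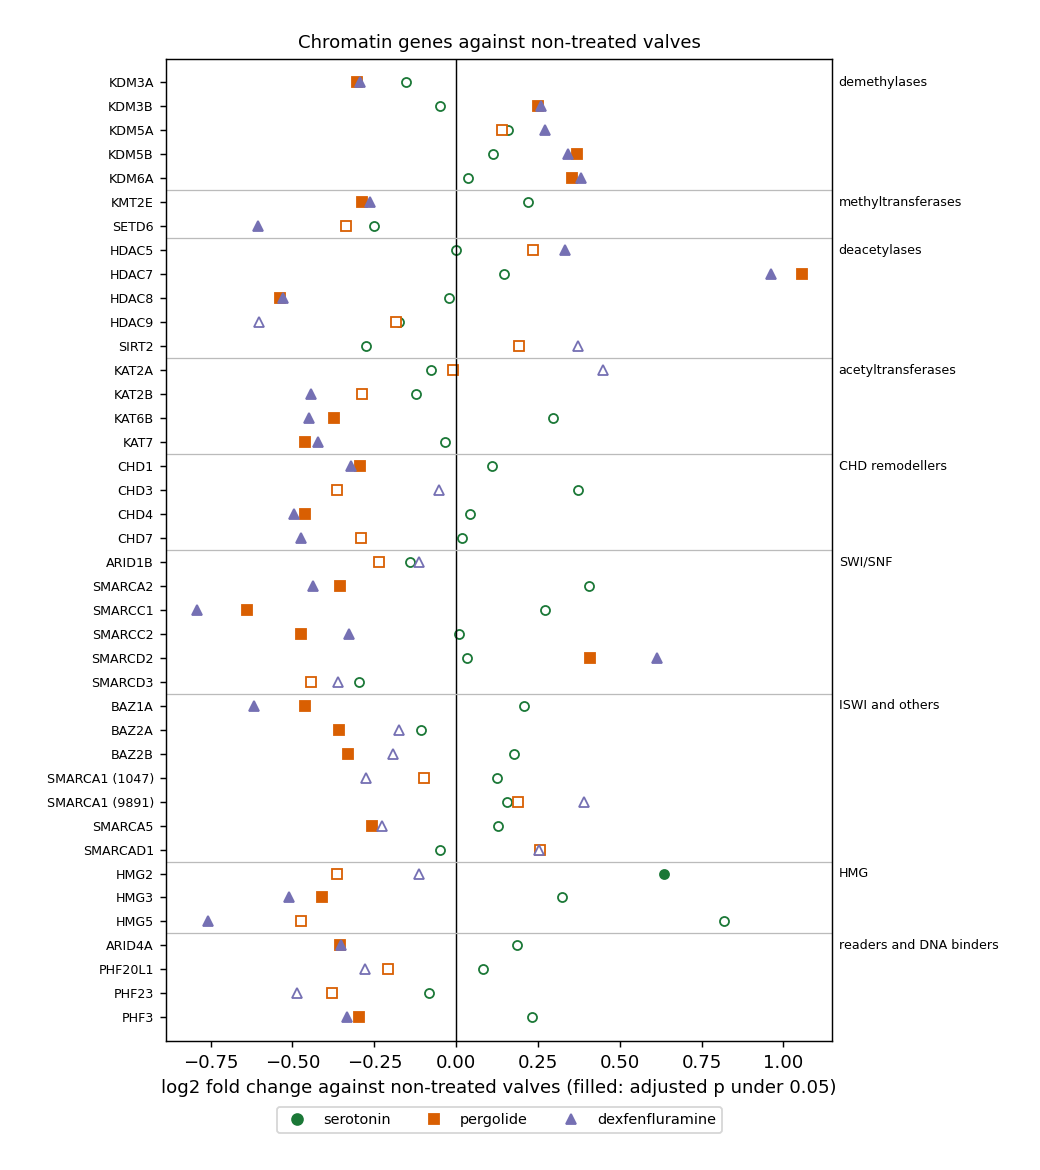
Log2 fold change of each of the 40 chromatin genes against non-treated valves for serotonin (circles), pergolide (squares) and dexfenfluramine (triangles), by class, 5 valves a group; filled symbols have an adjusted p under 0.05. Squares and triangles lie left of 0 for most classes and right of it for most demethylases and deacetylases, and HDAC7 lies farthest right at 1.06 and 0.96.

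The direct comparisons with serotonin valves come from the same fit of all 20 valves, and the treated valves entered the choice of the genes, so they too describe the set. Pergolide valves differed from serotonin valves in 26 of the 40 genes, 6 higher and 20 lower, beside 12.4% of all genes higher and 15.1% lower. Dexfenfluramine valves differed in 30, 9 higher and 21 lower, beside 13.9% and 16.4%. The median log2 difference of the 40 genes was -0.29 for pergolide and -0.37 for dexfenfluramine, beside 0.03 and 0.03 over all genes. Without dexfenfluramine 3 and non-treated 3 the counts were 27 and 27, beside 30.1% and 29.1% of all genes.

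With 4 surrogate variables from svaseq in the fit, 14 genes were called for pergolide and 17 for dexfenfluramine against serotonin, each also called without them, beside 17.8% and 16% of all genes. All of them were lower than under serotonin, since the 6 pergolide and 9 dexfenfluramine calls of higher genes were lost, together with the lower calls of CHD1, HMG5 and BAZ1A for pergolide, CHD7 for dexfenfluramine, and SMARCA5, HDAC8 and PHF20L1 for both. HDAC8 then stood -0.65 from serotonin for pergolide and -0.59 for dexfenfluramine, a larger drop than without surrogate variables. In the same order PHF20L1 stood -0.24 and -0.27 and SMARCA5 -0.24 and -0.22, smaller drops than without them. Against non-treated valves that fit called 8 for pergolide (7 of them called without it), 5 for dexfenfluramine (all of them called without it) and 2 for serotonin, beside 12.8%, 10.9% and 1.16% of all genes. The calls it kept were those of SMARCC2, KAT7, KMT2E and PHF3 for both drugs, BAZ2A, BAZ2B and KDM5B for pergolide and CHD1 for dexfenfluramine. The medians of the 40 genes were then -0.18 and -0.21 against non-treated valves and -0.24 and -0.26 against serotonin valves. The first of the surrogate variables followed the cardiomyocyte markers described further on, with a within-group r of -0.969 (permutation p = 1e-05, the smallest 100000 permutations can give), rho of -0.958 (p = 1e-05) and r of -0.969 without the 2 valves farthest from the median.

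**Figure D2:**
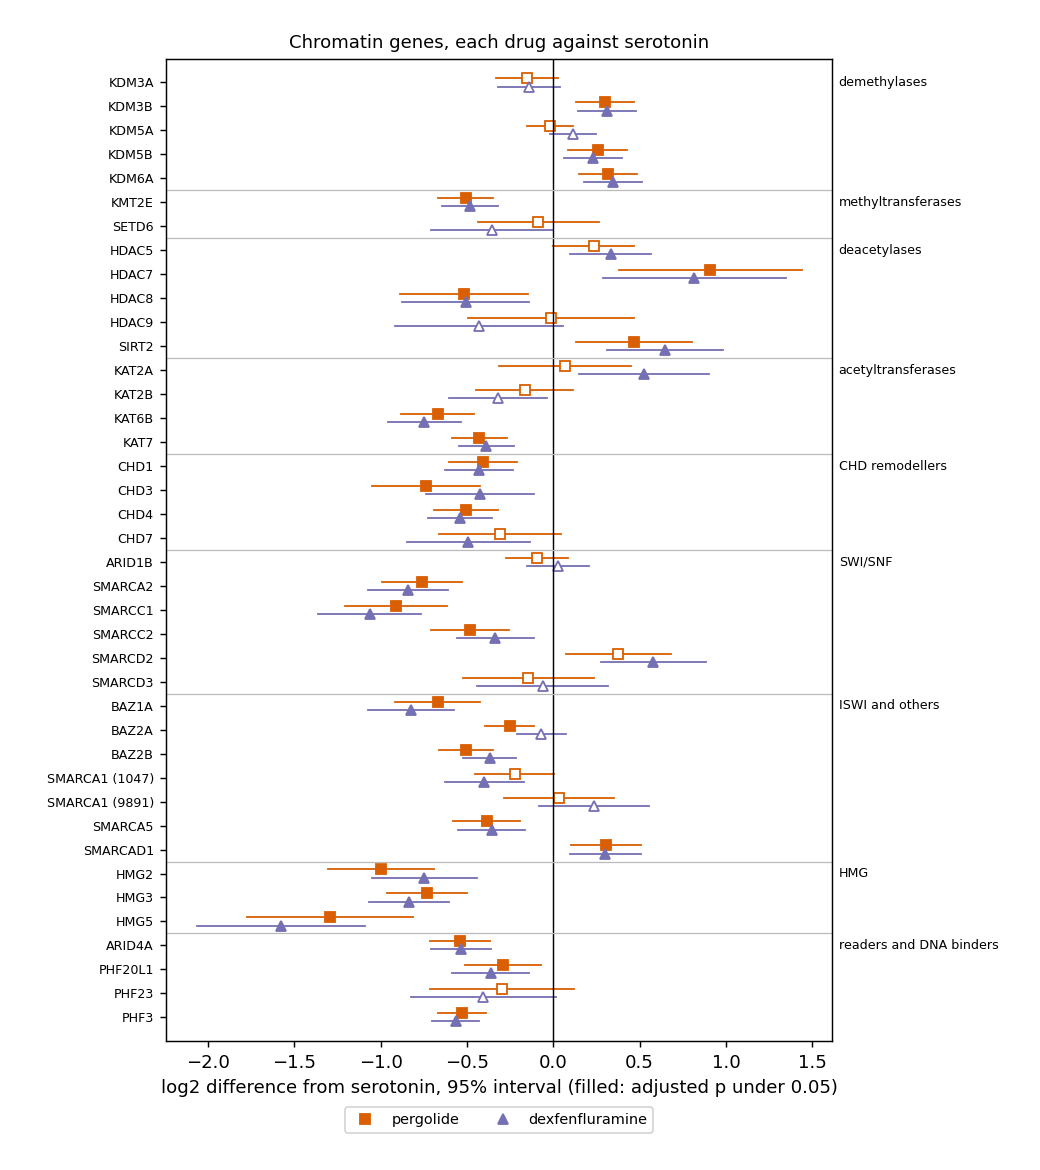
Log2 difference of each of the 40 chromatin genes from serotonin valves with its 95% interval, for pergolide (squares) and dexfenfluramine (triangles), 5 valves a group; filled symbols have an adjusted p under 0.05. HMG5 lies lowest at -1.29 and -1.58 and HDAC7 highest at 0.91 and 0.82.

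Counting valves rather than tests, all 10 drug valves lay below all 5 serotonin valves in 14 genes, beside 9.25% of all genes tested. They were CHD4, HMG2, HMG3, HMG5, BAZ1A, BAZ2B, SMARCA2, SMARCC1, SMARCC2, KAT6B, KAT7, KMT2E, ARID4A and PHF3. The 10 drug valves lay above all serotonin valves in 2 genes, KDM3B and KDM6A, beside 5.07%. They lay below all 10 non-treated and serotonin valves in 7 genes, CHD4, HMG3, BAZ1A, SMARCC1, KAT7, ARID4A and PHF3, beside 4.8%, and above all 10 in KDM6A, beside 2.73%. The study's choice of genes by their difference from non-treated valves favours such gaps.

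**Figure D3:**
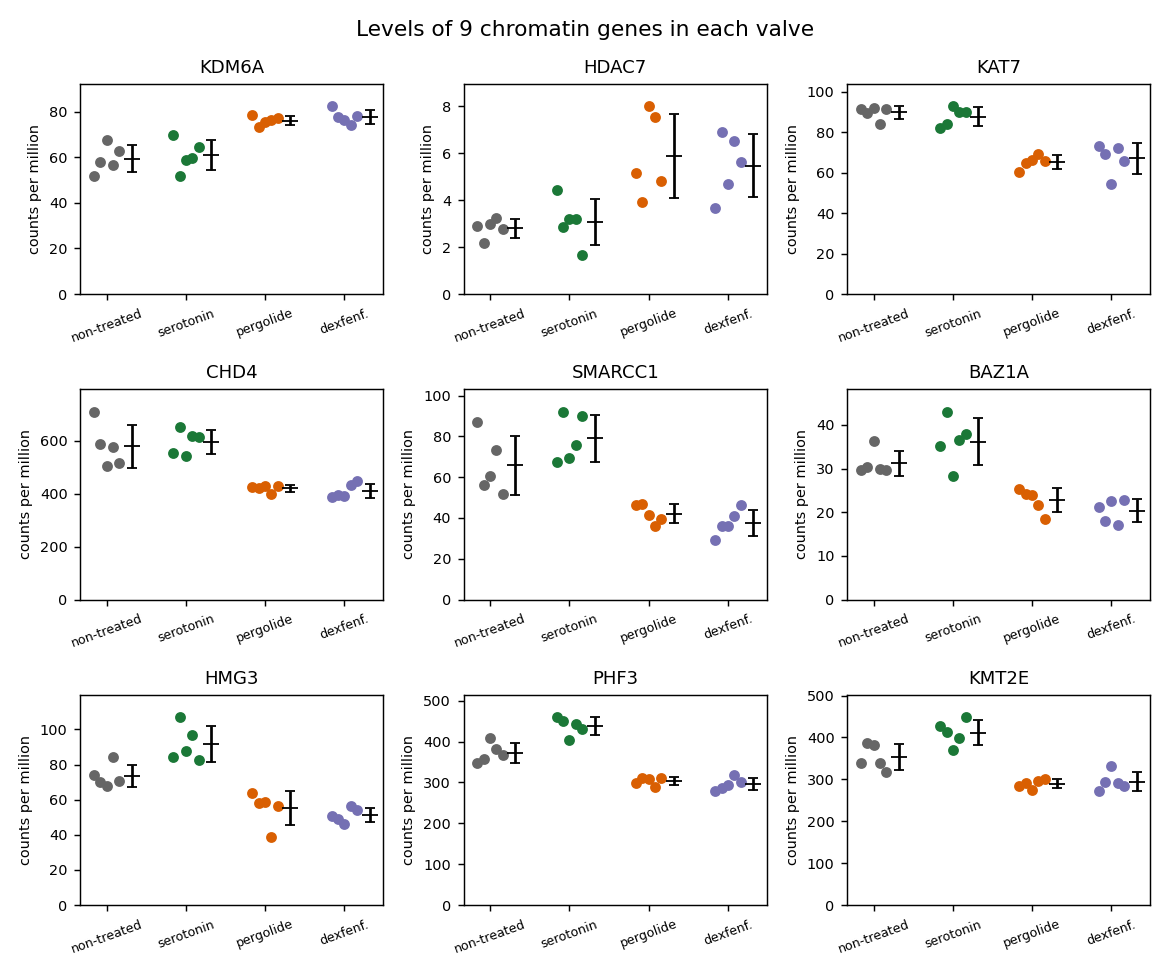
CPM of 9 chromatin genes in each valve by group, 5 valves a group, with mean and SD as bars beside the points; every axis starts at 0. Drug valves lie above all others in KDM6A and below all others in KAT7, CHD4, SMARCC1, BAZ1A, HMG3 and PHF3.

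The CHD remodellers were 4 genes. CHD4 and CHD3 are the motors of the NuRD complex, which joins remodelling with deacetylation, CHD1 works at transcribed genes, and CHD7 is the gene mutated in CHARGE syndrome, which includes heart defects. Against non-treated valves 2 were called lower for pergolide and 3 for dexfenfluramine. CHD4 (ENSOCUG00000008215) was at 709.5, 588, 506, 575 and 514 CPM in the non-treated valves and at 552, 651, 544, 617 and 615 in the serotonin valves. In pergolide valves CHD4 was at 426, 419.6, 429, 398 and 427 CPM, and in dexfenfluramine valves at 386, 396, 391, 431 and 446. CHD4 was lower in every drug valve than in any of the other 10, and non-treated and serotonin valves overlapped. CHD4 log2 fold changes against non-treated valves were 0.04 for serotonin, -0.46 for pergolide and -0.50 for dexfenfluramine. Both drug calls against non-treated valves were lost with svaseq, at -0.22 (adjusted p = 0.0996) and -0.23 (adjusted p = 0.102). Against serotonin valves CHD4 differed by -0.50 (SE 0.09, adjusted p = 0.000227) under pergolide and by -0.54 (SE 0.09, adjusted p = 0.000104) under dexfenfluramine. With svaseq CHD4 stood -0.36 (adjusted p = 0.00702) and -0.37 (adjusted p = 0.00901) from serotonin in the same order, both called. Levels of CHD1 (ENSOCUG00000004434) were 133, 115, 154, 122 and 131 CPM in non-treated and 144, 149.7, 142, 117 and 156 in serotonin valves. They were 106, 107, 106, 113 and 103 CPM under pergolide and 89.7, 95.6, 122, 107 and 111 under dexfenfluramine. All pergolide valves lay below every non-treated and serotonin valve for CHD1, while dexfenfluramine 3 lay within the range of both. The differences of CHD1 from serotonin valves were -0.40 (SE 0.09, adjusted p = 0.00288) for pergolide and -0.43 (SE 0.09, adjusted p = 0.00159) for dexfenfluramine. With svaseq CHD1 stood -0.24 (adjusted p = 0.140) and -0.36 (adjusted p = 0.0439) from serotonin in the same order, only the second called. Both dexfenfluramine calls of CHD7 were lost with svaseq. CHD7 then stood -0.26 (adjusted p = 0.133) from serotonin valves and 0.03 (adjusted p = 0.892) from non-treated valves, the latter with its sign turned. Of the class, 3 were called lower than under serotonin with pergolide and 4 with dexfenfluramine. The call of CHD3 for dexfenfluramine (-0.42) was lost with serotonin 1, 2, 3 and 5 and dexfenfluramine 1, 2, 4 and 5 left out in turn (highest adjusted p 0.103). That of CHD7 for dexfenfluramine (-0.49) was lost with serotonin 2, 4 and 5 and dexfenfluramine 2 and 3 left out in turn (highest adjusted p 0.0904).

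The SWI/SNF subunits were 6 genes: the motor SMARCA2, the core scaffold subunits SMARCC1 and SMARCC2, the accessory subunits SMARCD2 and SMARCD3, and the DNA-binding subunit ARID1B. With either drug 3 were called lower and 1 higher than in non-treated valves. SMARCC1 (ENSOCUG00000001940) was at 86.9, 56.1, 60.6, 73.2 and 51.8 CPM in the non-treated valves and at 67.6, 92.1, 69.5, 75.9 and 89.9 in the serotonin valves. In pergolide valves SMARCC1 was at 46.4, 47, 41.3, 35.9 and 39.5 CPM, and in dexfenfluramine valves at 29, 36, 36.2, 41 and 46.2. Every drug valve lay below every other valve for SMARCC1. SMARCC1 log2 fold changes against non-treated valves were 0.27 for serotonin, -0.64 for pergolide and -0.79 for dexfenfluramine. With svaseq the pergolide and dexfenfluramine calls were lost, at -0.28 (adjusted p = 0.243) and -0.36 (adjusted p = 0.159). Against serotonin valves SMARCC1 differed by -0.91 (SE 0.14, adjusted p = 5.91e-05) under pergolide and by -1.06 (SE 0.14, adjusted p = 1.01e-05) under dexfenfluramine. With svaseq SMARCC1 stood -0.60 (adjusted p = 0.0130) and -0.68 (adjusted p = 0.00983) from serotonin in the same order, both called. Levels of SMARCA2 (ENSOCUG00000006320) were 635, 454, 409.7, 378 and 428 CPM in non-treated and 614, 673, 602, 562 and 601 in serotonin valves. They were 314, 370.2, 364, 352 and 402 CPM under pergolide and 323, 337, 369.7, 349 and 324 under dexfenfluramine. SMARCA2 was higher in each serotonin valve than in any drug valve; among the non-treated valves, replicate 1 reached the serotonin range and replicate 4 fell below pergolide 5. The differences of SMARCA2 from serotonin valves were -0.76 (SE 0.11, adjusted p = 3.06e-05) for pergolide and -0.84 (SE 0.11, adjusted p = 8.90e-06) for dexfenfluramine. With svaseq SMARCA2 stood -0.65 (adjusted p = 0.000109) and -0.85 (adjusted p = 1.79e-05) from serotonin in the same order, both called. SMARCC2 was lower than under serotonin for pergolide (-0.48) and dexfenfluramine (-0.34), the latter call lost with serotonin 3 and dexfenfluramine 1 left out in turn (highest adjusted p 0.0614). SMARCD2 moved the other way, 0.38 for pergolide, not called, and 0.58 for dexfenfluramine, called. SMARCD3 and ARID1B were called in none of the direct comparisons, with differences from -0.14 to 0.03.

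The ISWI group and neighbours were 7 genes. SMARCA1 and SMARCA5 are the ISWI motors, BAZ1A, BAZ2A and BAZ2B are or resemble their large partner subunits, and SMARCAD1 is a remodeller that helps keep silent chromatin silent. Called lower than in non-treated valves were 4 for pergolide and 1, BAZ1A, for dexfenfluramine. BAZ1A (ENSOCUG00000012593) was at 29.6, 30.3, 36.3, 30 and 29.7 CPM in the non-treated valves and at 35.2, 43, 28.3, 36.5 and 37.9 in the serotonin valves. In pergolide valves BAZ1A was at 25.3, 24.3, 24, 21.6 and 18.5 CPM, and in dexfenfluramine valves at 21.3, 17.9, 22.7, 17.1 and 22.9. BAZ1A was lower in all 10 drug valves than in the others, and non-treated 3 lay above the tight range of the other non-treated valves. Against serotonin valves BAZ1A differed by -0.67 (SE 0.12, adjusted p = 0.000225) under pergolide and by -0.83 (SE 0.12, adjusted p = 2.26e-05) under dexfenfluramine. With svaseq BAZ1A stood -0.37 (adjusted p = 0.0988) and -0.49 (adjusted p = 0.0482) from serotonin in the same order, only the second called. Levels of BAZ2B (ENSOCUG00000015150) were 189.7, 176, 217, 183 and 174 CPM in non-treated and 214, 229, 210.1, 209 and 201 in serotonin valves. They were 149, 152, 161, 139 and 147 CPM under pergolide and 153, 169, 184, 155 and 161 under dexfenfluramine. All pergolide valves lay below all non-treated valves for BAZ2B, dexfenfluramine 3 lay within their range, and serotonin valves lay above every drug valve. The differences of BAZ2B from serotonin valves were -0.51 (SE 0.07, adjusted p = 3.23e-05) for pergolide and -0.37 (SE 0.07, adjusted p = 0.000749) for dexfenfluramine. With svaseq BAZ2B stood -0.43 (adjusted p = 0.00562) and -0.32 (adjusted p = 0.0454) from serotonin in the same order, both called. SMARCA5 was lower than under serotonin with both drugs (-0.38 and -0.36), and BAZ2A with pergolide (-0.25). SMARCAD1 was higher with both (0.31 and 0.30). Its pergolide call was lost with serotonin 2 and 5 and pergolide 4 left out in turn (highest adjusted p 0.0893), and its dexfenfluramine call with serotonin 2 and 5 and dexfenfluramine 2 and 3 left out in turn (highest adjusted p 0.0831). The 2 identifiers of SMARCA1 differed. ENSOCUG00000001047 stood -0.22 from serotonin for pergolide, not called, and -0.40 for dexfenfluramine, called lower. ENSOCUG00000009891 stood 0.03 and 0.24, neither called.

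The high mobility group comprised 3 genes, listed as HMG2, HMG3 and HMG5, which were not matched here to the present names of this family of small DNA- and nucleosome-binding proteins. All 3 were called lower under each drug than under serotonin. HMG3 (ENSOCUG00000003399) was at 73.9, 70.2, 67.9, 84.1 and 70.6 CPM in the non-treated valves and at 84.6, 107, 87.7, 96.8 and 82.6 in the serotonin valves. In pergolide valves HMG3 was at 64, 57.9, 58.8, 38.7 and 56.4 CPM, and in dexfenfluramine valves at 50.8, 49.1, 46.4, 56.7 and 54. For HMG3 every drug valve was below every other valve, and serotonin valves lay above the non-treated ones apart from an overlap with non-treated 4. Against serotonin valves HMG3 differed by -0.73 (SE 0.11, adjusted p = 4.42e-05) under pergolide and by -0.83 (SE 0.11, adjusted p = 9.88e-06) under dexfenfluramine. With svaseq HMG3 stood -0.64 (adjusted p = 0.00161) and -0.61 (adjusted p = 0.00437) from serotonin in the same order, both called. Levels of HMG5 (ENSOCUG00000029345) were 15.9, 17.3, 15.4, 17.6 and 12.7 CPM in non-treated and 34, 44.3, 15.5, 22 and 23.3 in serotonin valves. They were 11.3, 14.4, 12.4, 7.56 and 11 CPM under pergolide and 5.81, 10.5, 9.90, 8.57 and 11.4 under dexfenfluramine. HMG5 was highest in serotonin 1 and 2, and serotonin 3 fell within the non-treated range. Dexfenfluramine valves lay below all non-treated valves, and pergolide 2 lay among them. HMG5 log2 fold changes against non-treated valves were 0.82 for serotonin, -0.47 for pergolide and -0.76 for dexfenfluramine. The dexfenfluramine call was lost with dexfenfluramine 1 left out in turn (highest adjusted p 0.0581), and with svaseq at -0.40 (adjusted p = 0.456). The differences of HMG5 from serotonin valves were -1.29 (SE 0.23, adjusted p = 0.000255) for pergolide and -1.58 (SE 0.23, adjusted p = 3.28e-05) for dexfenfluramine. With svaseq HMG5 stood -0.83 (adjusted p = 0.0630) and -1.02 (adjusted p = 0.0357) from serotonin in the same order, only the second called. HMG5 had the largest log2 fold change of the 40 genes under serotonin, although it was not called there.

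HMG2, singled out after its values were seen, was the gene called for serotonin. Levels of HMG2 (ENSOCUG00000007320) were 95.6, 51.5, 53.4, 45 and 50.9 CPM in non-treated and 86.7, 93.1, 107, 87.1 and 83.1 in serotonin valves. They were 42.7, 44.8, 49.1, 42.9 and 49.5 CPM under pergolide and 54.4, 52, 58.7, 59.3 and 47.6 under dexfenfluramine. Serotonin valves lay above 4 of the non-treated valves, while non-treated 1 was as high as they were. Its difference under serotonin was 0.63 against non-treated valves (SE 0.15), and the call was lost with non-treated 2, 4 and 5 and serotonin 1, 2, 3, 4 and 5 left out in turn (highest adjusted p 0.132). Without non-treated 1 the value was 0.86. The call was also lost with DESeq2 size factors, no filter on low counts, a minimum of 10 counts per valve, the replicate block, only the 2 groups compared and the most abundant gene left out, and with svaseq the value was 0.96 (adjusted p = 0.00113), called. HMG2 stood -1.0 (SE 0.15, adjusted p = 3.35e-05) from serotonin under pergolide and -0.75 (SE 0.15, adjusted p = 0.000559) under dexfenfluramine. With svaseq HMG2 stood -0.95 (adjusted p = 0.000101) and -0.85 (adjusted p = 0.000530) from serotonin in the same order, both called.

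The acetyltransferases were 4 genes. KAT6B and KAT7 are catalytic subunits of MYST-family complexes, and KAT2A and KAT2B are the related catalytic subunits of coactivator complexes. For pergolide 2 and for dexfenfluramine 3 were called lower than in non-treated valves. KAT7 (ENSOCUG00000000668) was at 91.6, 89.7, 92.2, 84.1 and 91.6 CPM in the non-treated valves and at 82.2, 83.9, 92.9, 90.1 and 89.9 in the serotonin valves. In pergolide valves KAT7 was at 60.1, 64.8, 66.4, 69.1 and 66 CPM, and in dexfenfluramine valves at 73.4, 69.5, 54.4, 72.3 and 65.9. KAT7 fell into separate ranges, with all 10 drug valves below the other 10, and non-treated and serotonin valves overlapping. KAT7 log2 fold changes against non-treated valves were -0.03 for serotonin, -0.46 for pergolide and -0.42 for dexfenfluramine. With svaseq the drug values were -0.50 (adjusted p = 0.00413) and -0.44 (adjusted p = 0.0125), both called. KAT7 stood -0.43 (SE 0.08, adjusted p = 0.000270) from serotonin under pergolide and -0.39 (SE 0.08, adjusted p = 0.000619) under dexfenfluramine. With svaseq KAT7 stood -0.52 (adjusted p = 0.00251) and -0.46 (adjusted p = 0.0102) from serotonin in the same order, both called. Levels of KAT6B (ENSOCUG00000017344) were 168, 123, 169, 141 and 156 CPM in non-treated and 198, 221, 153, 169 and 190.2 in serotonin valves. They were 102, 126, 119, 109 and 129.5 CPM under pergolide and 113, 113, 102, 114 and 113 under dexfenfluramine. For KAT6B all dexfenfluramine valves lay below all non-treated valves, pergolide 2 and 5 lay above non-treated 2, and each serotonin valve was above every drug valve. The differences of KAT6B from serotonin valves were -0.67 (SE 0.10, adjusted p = 4.83e-05) for pergolide and -0.75 (SE 0.10, adjusted p = 1.32e-05) for dexfenfluramine. With svaseq KAT6B stood -0.60 (adjusted p = 0.00612) and -0.69 (adjusted p = 0.00344) from serotonin in the same order, both called. KAT2A went the other way under dexfenfluramine (0.53 against serotonin), a call lost with serotonin 2, 3, 4 and 5 and dexfenfluramine 2, 4 and 5 left out in turn (highest adjusted p 0.102). KAT2B was called in neither direct comparison with serotonin (-0.17 and -0.32).

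The deacetylases were 5 genes. HDAC5, HDAC7 and HDAC9 are signal-responsive deacetylases that hold back MEF2 transcription factors in muscle and endothelium, HDAC8 is a classical nuclear enzyme, and SIRT2 is an NAD-dependent deacetylase that acts largely in the cytoplasm. With each drug 3 of them had a log2 fold change above 0. Pergolide gave 1 call higher and 1 lower against non-treated valves, and dexfenfluramine 2 higher and 1 lower. HDAC7 (ENSOCUG00000024792) was at 2.89, 2.2, 2.98, 3.24 and 2.76 CPM in the non-treated valves and at 4.43, 2.85, 3.21, 3.22 and 1.69 in the serotonin valves. In pergolide valves HDAC7 was at 5.17, 3.93, 8.01, 7.56 and 4.80 CPM, and in dexfenfluramine valves at 3.66, 6.89, 4.68, 6.52 and 5.61. HDAC7 was higher in every drug valve than in any non-treated valve, while pergolide 2 and dexfenfluramine 1 lay below serotonin 1. These are low levels, from 6 to 43 counts per valve. HDAC7 log2 fold changes against non-treated valves were 0.15 for serotonin, 1.06 for pergolide and 0.96 for dexfenfluramine. Against serotonin valves HDAC7 differed by 0.91 (SE 0.25, adjusted p = 0.0104) under pergolide and by 0.82 (SE 0.25, adjusted p = 0.0193) under dexfenfluramine. With svaseq HDAC7 stood 0.46 (adjusted p = 0.464) and 0.38 (adjusted p = 0.572) from serotonin in the same order, neither called. Without surrogate variables the dexfenfluramine call was lost with serotonin 5 and dexfenfluramine 2 left out in turn (highest adjusted p 0.0592). Its calls against non-treated valves were lost with svaseq, at 0.72 (adjusted p = 0.235) for pergolide and 0.65 (adjusted p = 0.315) for dexfenfluramine. Levels of SIRT2 (ENSOCUG00000027924) were 17, 14.4, 10.2, 11.5 and 18.6 CPM in non-treated and 13.3, 10.8, 12.9, 11.3 and 10.4 in serotonin valves. They were 11.9, 17.9, 17.9, 15.7 and 17.8 CPM under pergolide and 17.6, 15.5, 18.2, 21.6 and 19.1 under dexfenfluramine. SIRT2 was higher in all dexfenfluramine valves than in serotonin valves, pergolide 1 lay within the serotonin range, and the non-treated valves overlapped all groups. The differences of SIRT2 from serotonin valves were 0.47 (SE 0.16, adjusted p = 0.0366) for pergolide and 0.65 (SE 0.16, adjusted p = 0.00439) for dexfenfluramine. With svaseq SIRT2 stood 0.31 (adjusted p = 0.330) and 0.39 (adjusted p = 0.236) from serotonin in the same order, neither called. Without surrogate variables the pergolide call was lost with serotonin 2, 4 and 5 and pergolide 2, 3, 4 and 5 left out in turn (highest adjusted p 0.0858), and also with limma-voom and the replicate block. HDAC5 was called higher with dexfenfluramine (0.33), a call lost with serotonin 2, 3 and 4 and dexfenfluramine 1, 2 and 3 left out in turn (highest adjusted p 0.0877), with the replicate block, and with svaseq at 0.01 (adjusted p = 0.966). HDAC8 was called lower than under serotonin with pergolide (-0.52) and dexfenfluramine (-0.51). The pergolide call was lost with serotonin 2, 3 and 5 and pergolide 1, 2, 3, 4 and 5 left out in turn (highest adjusted p 0.103), and the dexfenfluramine call with serotonin 2, 3 and 5 and dexfenfluramine 3 and 5 left out in turn (highest adjusted p 0.101). HDAC9 was called in none of the direct comparisons (-0.01 and -0.43).

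Of the 5 demethylases, 4 had a log2 fold change above 0 with each drug against non-treated valves. KDM6A removes the repressive methyl mark placed by Polycomb, KDM5A and KDM5B remove a mark of active promoters, and KDM3A and KDM3B remove another repressive mark. Of them, 3 were called higher for pergolide and 4 for dexfenfluramine against non-treated valves, and KDM3A was called lower for both. KDM6A (ENSOCUG00000014741) was at 51.9, 58, 67.8, 56.5 and 62.8 CPM in the non-treated valves and at 69.9, 51.9, 58.7, 59.8 and 64.6 in the serotonin valves. In pergolide valves KDM6A was at 78.5, 73.1, 75.4, 76.3 and 77 CPM, and in dexfenfluramine valves at 82.4, 77.7, 76.1, 74 and 78.2. Every drug valve was above every other valve for KDM6A, and non-treated and serotonin valves overlapped. KDM6A log2 fold changes against non-treated valves were 0.04 for serotonin, 0.35 for pergolide and 0.38 for dexfenfluramine. KDM6A stood 0.32 (SE 0.08, adjusted p = 0.00543) from serotonin under pergolide and 0.35 (SE 0.08, adjusted p = 0.00251) under dexfenfluramine. With svaseq KDM6A stood 0.23 (adjusted p = 0.101) and 0.26 (adjusted p = 0.0798) from serotonin in the same order, neither called. Its calls against non-treated valves were lost with svaseq, at 0.16 (adjusted p = 0.284) for pergolide and 0.19 (adjusted p = 0.208) for dexfenfluramine. Levels of KDM5B (ENSOCUG00000008003) were 77.9, 66.1, 74.6, 63.5 and 64 CPM in non-treated and 69, 70.9, 78.6, 78.6 and 77 in serotonin valves. They were 81.6, 84.6, 86, 96.7 and 97.7 CPM under pergolide and 77.7, 91.3, 94.9, 88.7 and 85.6 under dexfenfluramine. KDM5B was higher in each pergolide valve than in any non-treated or serotonin valve, and dexfenfluramine 1 lay within both ranges. The differences of KDM5B from serotonin valves were 0.26 (SE 0.08, adjusted p = 0.0220) for pergolide and 0.23 (SE 0.08, adjusted p = 0.0362) for dexfenfluramine. With svaseq KDM5B stood 0.27 (adjusted p = 0.0814) and 0.17 (adjusted p = 0.346) from serotonin in the same order, neither called. Without surrogate variables the pergolide call was lost with serotonin 1 and 2 and pergolide 4 and 5 left out in turn (highest adjusted p 0.0705), and the dexfenfluramine call with serotonin 1, 2, 4 and 5 and dexfenfluramine 2, 3 and 4 left out in turn (highest adjusted p 0.1002) and also with no filter on low counts, the replicate block and only the 2 groups compared. KDM3B was called higher than under serotonin with both drugs (0.30 and 0.31) but not with svaseq (0.21 and 0.21). KDM3A and KDM5A were not called (-0.15 and -0.14, -0.02 and 0.11).

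The methyltransferase prefixes gave 2 genes. KMT2E carries a SET domain and reads a promoter mark, and SETD6 methylates non-histone proteins, among them a subunit of NF-kappaB. KMT2E (ENSOCUG00000008790) was at 338, 386, 383, 340.1 and 318 CPM in the non-treated valves and at 426, 414, 369, 399 and 448 in the serotonin valves. In pergolide valves KMT2E was at 284, 290.5, 275, 297 and 301 CPM, and in dexfenfluramine valves at 271, 293, 332, 291 and 284. All pergolide valves lay below all non-treated valves for KMT2E, dexfenfluramine 3 was above non-treated 5, and each serotonin valve was above all drug valves. KMT2E log2 fold changes against non-treated valves were 0.22 for serotonin, -0.29 for pergolide and -0.26 for dexfenfluramine. With svaseq the drug values were -0.29 (adjusted p = 0.0249) and -0.31 (adjusted p = 0.0234), both called, while the dexfenfluramine call was lost with no filter on low counts, upper-quartile scaling and only the 2 groups compared. KMT2E stood -0.51 (SE 0.08, adjusted p = 4.53e-05) from serotonin under pergolide and -0.48 (SE 0.08, adjusted p = 7.06e-05) under dexfenfluramine. With svaseq KMT2E stood -0.39 (adjusted p = 0.00313) and -0.42 (adjusted p = 0.00359) from serotonin in the same order, both called. Levels of SETD6 (ENSOCUG00000006903) were 14.1, 13, 11.1, 10.3 and 9.89 CPM in non-treated and 7.45, 13.3, 7.89, 9.12 and 11.2 in serotonin valves. They were 10.5, 9.57, 8.22, 10.2 and 7.29 CPM under pergolide and 8.18, 8.79, 6.30, 7.45 and 7.37 under dexfenfluramine. SETD6 was lower in all dexfenfluramine valves than in all non-treated valves, and serotonin and pergolide valves overlapped every group. SETD6 log2 fold changes against non-treated valves were -0.25 for serotonin, -0.34 for pergolide and -0.60 for dexfenfluramine. The dexfenfluramine call of SETD6 was lost with svaseq, at -0.18 (adjusted p = 0.676). Neither of its differences from serotonin was called (-0.09 for pergolide and -0.35 for dexfenfluramine).

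Readers and DNA binders were 4 genes. PHF3 binds the tail of RNA polymerase, ARID4A belongs to a corepressor complex with histone deacetylases, and PHF20L1 and PHF23 carry domains that read methylated lysines. Both drugs gave 2 calls against non-treated valves, PHF3 and ARID4A, each lower. PHF3 (ENSOCUG00000015520) was at 348, 357, 409.7, 383 and 367 CPM in the non-treated valves and at 459.9, 452, 405, 442 and 432 in the serotonin valves. In pergolide valves PHF3 was at 298, 312, 308, 290.0 and 309.9 CPM, and in dexfenfluramine valves at 279, 287, 294, 319 and 301. Every drug valve was below every other valve for PHF3, and serotonin valves lay above the non-treated ones except for an overlap of serotonin 3 with non-treated 3. PHF3 stood -0.53 (SE 0.07, adjusted p = 5.04e-06) from serotonin under pergolide and -0.57 (SE 0.07, adjusted p = 2.17e-06) under dexfenfluramine. With svaseq PHF3 stood -0.51 (adjusted p = 0.000322) and -0.53 (adjusted p = 0.000413) from serotonin in the same order, both called. Levels of ARID4A (ENSOCUG00000001052) were 135, 119, 133, 125 and 119 CPM in non-treated and 156, 169, 121, 134 and 138 in serotonin valves. They were 97.1, 100.1, 104, 97.8 and 95.4 CPM under pergolide and 105, 89.4, 101, 92.6 and 107 under dexfenfluramine. ARID4A was likewise lower in all 10 drug valves than in the others. The differences of ARID4A from serotonin valves were -0.54 (SE 0.08, adjusted p = 5.30e-05) for pergolide and -0.54 (SE 0.08, adjusted p = 5.09e-05) for dexfenfluramine. With svaseq ARID4A stood -0.43 (adjusted p = 0.00936) and -0.42 (adjusted p = 0.0150) from serotonin in the same order, both called. PHF20L1 was called lower than under serotonin with pergolide (-0.29) and dexfenfluramine (-0.36), the first of these calls lost with serotonin 1, 2 and 5 and pergolide 1, 2, 3 and 5 left out in turn (highest adjusted p 0.128). PHF23 was not called (-0.30 and -0.40).

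With single valves left out in turn, 21 of the 26 pergolide calls and 21 of the 30 dexfenfluramine calls against serotonin held in every fit. Against non-treated valves, 16 of the 22 pergolide calls and 18 of the 25 dexfenfluramine calls did. The pergolide calls that did not hold were those of CHD1, with non-treated 3 and pergolide 1 and 5 left out in turn (highest adjusted p 0.0767), HDAC8, with non-treated 3 and 4 and pergolide 1, 3 and 5 left out in turn (highest adjusted p 0.0728), and KDM3B, with non-treated 2, 4 and 5 and pergolide 2, 4 and 5 left out in turn (highest adjusted p 0.107). SMARCA2 lost its pergolide call with non-treated 1 and pergolide 1 and 4 left out in turn (highest adjusted p 0.0688), SMARCA5 with non-treated 1, 2, 3 and 4 and pergolide 1, 3, 4 and 5 left out in turn (highest adjusted p 0.103) and SMARCD2 with non-treated 1, 2, 4 and 5 and pergolide 3, 4 and 5 left out in turn (highest adjusted p 0.136). Under dexfenfluramine CHD7 lost its call with non-treated 1, 2 and 4 and dexfenfluramine 2, 3 and 5 left out in turn (highest adjusted p 0.112), HDAC5 with non-treated 1, 2 and 3 and dexfenfluramine 1, 2 and 3 left out in turn (highest adjusted p 0.110) and HDAC8 with non-treated 4 and dexfenfluramine 3 and 5 left out in turn (highest adjusted p 0.0798). HMG5 lost its dexfenfluramine call with dexfenfluramine 1 left out in turn (highest adjusted p 0.0581), KAT2B with non-treated 1 and dexfenfluramine 3 left out in turn (highest adjusted p 0.0546), KDM3B with non-treated 2, 4 and 5 and dexfenfluramine 4 left out in turn (highest adjusted p 0.0745) and SMARCC2 with non-treated 1 and 5 and dexfenfluramine 1 and 5 left out in turn (highest adjusted p 0.0739).

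Between the drugs, dexfenfluramine minus pergolide differences of the 40 genes ran from -0.42 to 0.46 with a median of 0.01, and 95% intervals reached from -0.90 to 0.83 with a median half-width of 0.23. None was called, and edgeR called 0% of all genes; 0 of 13749 genes were called by DESeq2 and 0 of 8683 by limma-voom. At an unadjusted p under 0.05 there were 4 of the 40, beside 613 of 8683 genes. They were CHD3 at 0.31 (0.00 to 0.62), BAZ2A at 0.18 (0.04 to 0.32), KAT2A at 0.46 (0.10 to 0.83) and KDM5A at 0.13 (0.00 to 0.26). The interval lay inside 0.5 on either side of 0 for 30 genes and reached beyond it for 10, so for the latter a difference of that size was not excluded. These intervals do not show that the drugs act alike.

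**Figure D4:**
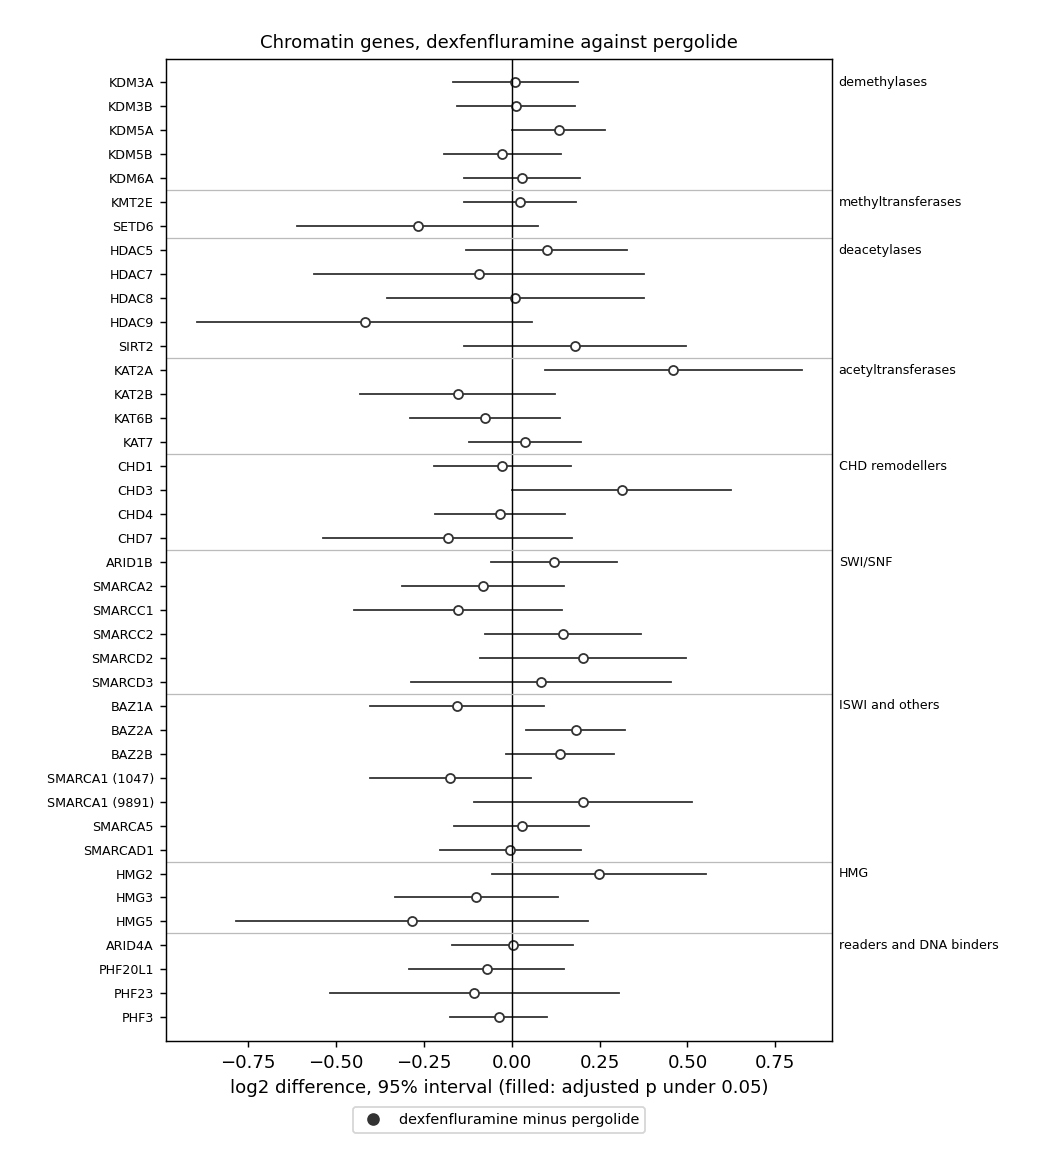
Log2 difference of dexfenfluramine minus pergolide for each of the 40 chromatin genes, with 95% interval, 5 valves a group. Symbols would be filled at an adjusted p under 0.05 and none is, and HDAC9 and HMG5 have intervals reaching farthest to the left.

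Chromatin genes were also counted by function from lists of 302 genes, whose symbols again came from the study's list. Of these, 88 were matched and tested, 37 of the 40 genes above and 51 others. Against non-treated valves 2 were called for serotonin (2 higher, 0 lower), beside 1.04% and 0.15% of all genes tested, 50 for pergolide (9 higher, 41 lower), beside 12.1% and 12.7%, and 60 for dexfenfluramine (14 higher, 46 lower), beside 13.5% and 15.4%. Against serotonin valves 51 were called for pergolide (8 higher, 43 lower), beside 12.4% and 15.1%, and 58 for dexfenfluramine (14 higher, 44 lower), beside 13.9% and 16.4%. Between the drugs 0 were called by edgeR, DESeq2 or limma-voom, with 6 at an unadjusted p under 0.05. With svaseq the counts were 24 for pergolide and 17 for dexfenfluramine against non-treated valves and 33 and 34 against serotonin valves, beside 12.8%, 10.9%, 17.8% and 16% of all genes. Of the functions in these lists, a separate count is given here for the histone chaperones alone. Histone chaperones hand histones on and off DNA, and only 5 of those listed had a symbol in the study's list. These 5 were all called lower with both drugs against non-treated valves, beside 12.7% and 15.4% of all genes. Since the study listed them as differing from non-treated valves, this count is not a test, and the other listed chaperones could not be examined. With svaseq NASP lost its dexfenfluramine call, at -0.31 (adjusted p = 0.138). Among them ANP32E stood at -1.88 (SE 0.14) and -1.82 (SE 0.14), SET at -1.08 (SE 0.10) and -1.11 (SE 0.10) and SUPT6H at -0.46 (SE 0.07) and -0.47 (SE 0.07) for pergolide and dexfenfluramine against non-treated valves. Of the genes that stood higher, UHRF2, a reader of methylated DNA, was at 0.58 (SE 0.11) and 0.60 (SE 0.11), and AEBP2, a Polycomb partner, at 0.41 (SE 0.13) and 0.44 (SE 0.13). SMYD4 was at 0.68 (SE 0.19) for pergolide and KANSL3 at 0.26 (SE 0.08) for dexfenfluramine. AEBP2 lost its pergolide call with non-treated 2 and 4 and pergolide 2 and 5 left out in turn (highest adjusted p 0.107) and its dexfenfluramine call with non-treated 2 and 4 and dexfenfluramine 3 left out in turn (highest adjusted p 0.0632), and KANSL3 lost its call with non-treated 1, 2 and 5 and dexfenfluramine 1 and 5 left out in turn (highest adjusted p 0.0599). With svaseq the calls of AEBP2 were lost, at 0.36 (adjusted p = 0.195) and 0.28 (adjusted p = 0.367), and so were those of SMYD4, at 0.58 (adjusted p = 0.195), and KANSL3, at 0.20 (adjusted p = 0.354). RSF1, an ISWI partner, at 0.37 (SE 0.09), and NAP1L1, a histone chaperone, at 0.43 (SE 0.10), were the genes called for serotonin. The call of RSF1 was lost with non-treated 2, 4 and 5 and serotonin 1, 2, 4 and 5 left out in turn (highest adjusted p 0.141), and that of NAP1L1 with non-treated 1, 2, 4 and 5 and serotonin 1, 2, 4 and 5 left out in turn (highest adjusted p 0.134). Neither was called with svaseq, RSF1 at 0.38 (adjusted p = 0.0738) and NAP1L1 at 0.41 (adjusted p = 0.109), and both lost the call with 7 other alternatives named at the end. The study chose these genes on these valves, so the directions are not independent evidence.

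Valve tissue was checked by marker genes, each list restricted to symbols of the study's list. Of 10 markers of valvular interstitial cells, 6 were found, VIM the most abundant, and their summed CPM averaged 4706 in non-treated, 5143 in serotonin, 6342 in pergolide and 7206 in dexfenfluramine valves. Cardiomyocyte markers, 11 of 17 found with TTN the most abundant and none at 0 in any valve, also stood high. Their summed CPM was 144146, 107623, 49830.5, 152740.0 and 98294 in the non-treated valves and 54006, 105109, 61037, 98152 and 64234 in the serotonin valves. It was 82934, 92909.8, 93326, 53114 and 48492 in the pergolide valves and 71664, 53048, 12598, 60941 and 71959 in the dexfenfluramine valves. The ranges overlapped, with dexfenfluramine 3 far below all others. Adipocyte markers (3 of 8, ADIPOQ the most abundant, LEP at 0 in 1 dexfenfluramine valve) averaged 35.8, 73.3, 123 and 57.4 CPM in non-treated, serotonin, pergolide and dexfenfluramine valves. In the same order, endothelial markers (2 of 7, PECAM1 the most abundant) averaged 266, 296, 165 and 214. Macrophage markers (2 of 7, C1QA) averaged 16.2, 21.3, 32.9 and 28.7. Of 4 smooth muscle markers 2 were found, MYH11 averaging 46.5, 45.9, 31.1 and 17.2 and TAGLN 2.09, 1.92, 4.15 and 5.37. The Schwann cell marker S100B (1 of 4) averaged 20.6, 19, 10.5 and 18.5. Of the 6 lymphocyte, 4 erythroid, 4 chondrocyte and 6 proliferation markers 0 had an identifier.

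Markers were kept only if the study listed them as differing from non-treated valves, so their calls describe chosen genes and are not a test. Of all genes, 12.1% were called higher and 12.7% lower for pergolide against non-treated valves, and 13.5% and 15.4% for dexfenfluramine. Against serotonin valves the shares were 12.4% and 15.1% for pergolide and 13.9% and 16.4% for dexfenfluramine. Against non-treated valves 0 markers were called for serotonin. Of the 6 interstitial markers 5 were called higher for pergolide and 4 for dexfenfluramine against non-treated valves, and 3 and 4 against serotonin valves. Of the latter, COL1A2 lost its pergolide call with serotonin 1, 2, 3 and 5 and pergolide 3, 4 and 5 left out in turn (highest adjusted p 0.131) and its dexfenfluramine call with serotonin 2 and 5 and dexfenfluramine 2 and 3 left out in turn (highest adjusted p 0.0666), and COL1A1 its dexfenfluramine call with serotonin 2, 3 and 5 and dexfenfluramine 2 and 3 left out in turn (highest adjusted p 0.0966). Of the 11 cardiomyocyte markers 1 was called lower for pergolide and 4 for dexfenfluramine against non-treated valves, and 1 for each drug against serotonin valves, and MYH7 lost its dexfenfluramine call with non-treated 1 left out in turn (highest adjusted p 0.0608). The 3 adipocyte markers were called higher for pergolide against non-treated valves and in no other comparison, at 1.46 for ADIPOQ, 2.25 for LEP and 2.86 for CIDEA. The call of ADIPOQ was lost with non-treated 1, 2, 3 and 5 and pergolide 1, 2 and 5 left out in turn (highest adjusted p 0.0967) and that of LEP with non-treated 2 and 5 and pergolide 1 left out in turn (highest adjusted p 0.0644). Both endothelial markers were called lower for pergolide, PECAM1 at -0.73 against non-treated and -0.83 against serotonin valves and EMCN at -0.54 and -0.88, and EMCN for dexfenfluramine against serotonin valves (-0.63). EMCN lost its call for pergolide against non-treated valves with non-treated 2, 3 and 5 and pergolide 2, 3 and 5 left out in turn (highest adjusted p 0.0752). The macrophage marker C1QA was called higher for pergolide against non-treated valves (1.45) and C1QB for dexfenfluramine against serotonin valves (1.09). MYH11 was called lower for dexfenfluramine, at -1.41 against non-treated and -1.41 against serotonin valves. TAGLN was called higher for dexfenfluramine, at 1.36 and 1.49, and for pergolide, at 0.99 and 1.124, where the first call was lost with non-treated 1, 2, 3 and 4 and pergolide 1, 3, 4 and 5 left out in turn (highest adjusted p 0.110) and the second with serotonin 1, 4 and 5 and pergolide 4 left out in turn (highest adjusted p 0.0817). S100B was called lower for pergolide against non-treated (-0.94) and serotonin valves (-0.86), the first call lost with non-treated 1 and 4 and pergolide 1, 2 and 5 left out in turn (highest adjusted p 0.125) and the second with serotonin 1, 2 and 4 and pergolide 1, 2 and 5 left out in turn (highest adjusted p 0.139). Between the drugs 0 markers were called.

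Across the 20 valves, with group means removed, chromatin genes were related to the summed cardiomyocyte markers, which made 40 relations. The edgeR slope on the markers was called rising for 4 genes, beside 13.1% of all genes, and falling for 2, beside 5.97%, and the median r of the 40 genes was -0.02. CHD7 rose with the markers, with r = 0.866 (permutation p = 1e-05, the smallest possible) and rho = 0.845 (p = 2e-05), and r = 0.800 without the 2 valves farthest from the median, dexfenfluramine 3 and non-treated 3. HDAC9 had r = 0.847 (permutation p = 6e-05), rho = 0.806 (p = 0.00015) and r = 0.771 without those valves. SMARCD3 had r = 0.719 (permutation p = 9e-05), rho = 0.702 (p = 0.0011) and r = 0.662 without them. KAT2B had r = 0.729 (permutation p = 0.0021), rho = 0.663 (p = 0.0053) and r = 0.494 without them. SMARCD2 fell, with r = -0.667 (permutation p = 0.0017), rho = -0.717 (p = 0.00053) and r = -0.619 without them. CHD3 also fell, with r = -0.594 (permutation p = 0.024), rho = -0.690 (p = 0.0014) and r = -0.533 without them. Slope p-values adjusted over all genes were 2.75e-05 for CHD7, 4.80e-05 for HDAC9, 0.00534 for SMARCD3, 0.00701 for KAT2B, 0.0156 for SMARCD2 and 0.0321 for CHD3.

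**Figure D5:**
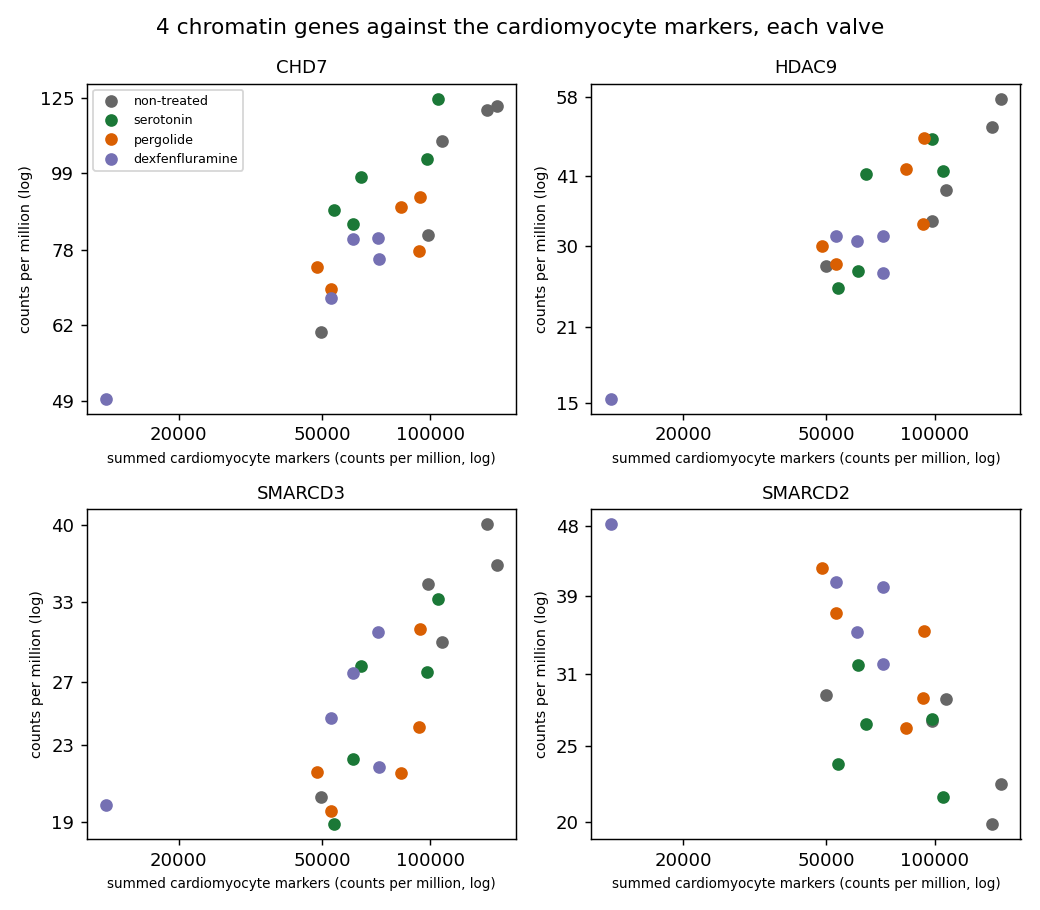
CPM of CHD7, HDAC9, SMARCD3 and SMARCD2 in each of the 20 valves against the summed CPM of 11 cardiomyocyte markers, colours by group, both axes on a log scale. CHD7, HDAC9 and SMARCD3 lie higher where the markers are higher and SMARCD2 lies lower, with dexfenfluramine 3 at the far left.

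With the cardiomyocyte markers as a covariate, an alternative added after the data were seen, 23 of the 40 genes were called for pergolide and 18 for dexfenfluramine against non-treated valves, beside 27.2% and 19.2% of all genes, and 21 and 16 of these were called without it. Against serotonin valves 28 and 24 were called, beside 33.4% and 30.8%, of which 26 and 24 were called without it, and for serotonin against non-treated valves 2, beside 2.22%. Between the drugs it called 0%. In that fit the dexfenfluramine minus non-treated log2 differences of the first gene given by valve in each class were -0.38 for CHD4 (-0.50 without it), -0.63 for SMARCC1 (-0.79 without it), -0.63 for BAZ1A (-0.62 without it), -0.34 for HMG3 (-0.51 without it), -0.35 for KAT7 (-0.42 without it), 0.98 for HDAC7 (0.96 without it), 0.32 for KDM6A (0.38 without it), -0.37 for KMT2E (-0.26 without it) and -0.35 for PHF3 (-0.33 without it). The dexfenfluramine calls lost were those of CHD7, at -0.03 in place of -0.47, HMG5, SMARCD2, KAT2B, HDAC5, HDAC8, KDM3A, KDM3B and SETD6. With the covariate HMG5 was at -0.65, SMARCD2 at 0.36, KAT2B at -0.17 and HDAC5 at 0.31. HDAC8 was at -0.43, KDM3A at -0.17, KDM3B at 0.26 and SETD6 at -0.43. Values of HMG5, HDAC5, HDAC8 and KDM3B lay within their ranges over the fits with single valves left out. Those of CHD7, KAT2B and KDM3A lay outside theirs, nearer to no difference. The range of CHD7 was -0.61 to -0.37. For SMARCD2 and SETD6 under dexfenfluramine that range is not given here. The pergolide call lost was that of SMARCD2, at 0.30 in place of 0.41, below its range of 0.32 to 0.49 with single valves left out. Against serotonin valves no pergolide call was lost, and for dexfenfluramine those of CHD7, SMARCAD1, KAT2A, HDAC5, HDAC8 and KDM5B were. With the covariate KAT2A was at 0.44, HDAC5 at 0.32 and HDAC8 at -0.45, within their ranges over the fits with single valves left out. CHD7 at -0.25, SMARCAD1 at 0.23 and KDM5B at 0.17 lay outside theirs, nearer to no difference. HDAC9, called in neither fit, was at -0.03 in place of -0.60. Whether cell composition accounts for any of the differences was not tested.

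Within groups, correlations between pairs of the 40 genes were centred near 0. Over 780 pairs the median correlation across valves, with group means removed, was 0.04, over the 78 pairs of the same class 0.03, and over pairs drawn from all genes -0.00. These are descriptions, since valves share libraries and depth, and single pairs were not tested.

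Of the 11 listed symbols whose identifiers were not found in the count table as written, ARID4B, TET1, PHF6 and PHF14 carried 1 extra zero, and removing it gave a gene. These 4 are not among the 40. ARID4B, of the same corepressor complex as ARID4A, stood at 0.40 for serotonin, -0.40 for pergolide and -0.33 for dexfenfluramine against non-treated valves, and at -0.79 and -0.73 for the drugs against serotonin. TET1, which oxidizes methylated DNA, stood at 0.28, -0.33 and -0.29, and at -0.60 and -0.57. PHF6 stood at 0.19, 0.42 and 0.54, and at 0.23 and 0.35, and PHF14 at 0.15, -0.20 and -0.06, and at -0.35 and -0.21, in the same order. CBX1, CHD9, HMG2N, HMG2N1, HMGB1, HMGB2 and ING3 were not analysed here.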

How the data were processed

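RNA of whole tricuspid valves from 20 rabbits was analysed. According to the study's methods the authors depleted ribosomal RNA, made stranded libraries, sequenced them on a NextSeq500, trimmed reads, aligned them to the rabbit genome with TopHat2 2.1.1 and counted them per Ensembl gene with HTSeq in union mode. The deposited values are counts, not normalized or filtered. The annotation release, strand setting and treatment of multiply aligned reads were not given in the sources used here, and the last could change genes with close relatives. The authors' later steps, which were filtering and removal of unwanted variation, are not part of these counts.

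Counts were normalized by TMM, filtered by filterByExpr with the 4 groups and tested with the quasi-likelihood test of edgeR 4.0.16 (R 4.3.3) in 1 fit of all 20 valves, with Benjamini-Hochberg adjustment over 8683 genes. All columns were used. The method was tested on simulated data. CPM are scaled by TMM library sizes, log2 CPM used a prior count of 2, and intervals are at 95%. Genes were named by rule: per-valve values for the 2 genes of each class with the smallest p over the 4 groups and for the gene of largest log2 fold change in each treatment, and for the wider lists the genes with the smallest p in each direction and those called for serotonin. HMG2 was added after its values were seen.

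Alternatives were DESeq2 1.42.0, limma-voom (limma 3.58.1), DESeq2 size factors, upper-quartile scaling, no filter on low counts, a minimum of 10 counts per valve, svaseq (sva 3.50.0), a block for replicate number, fits of only the 2 groups compared, the most abundant gene left out, and each valve left out. Added after the data were seen were both valves that stand apart left out, a cardiomyocyte marker covariate, identifiers with 1 extra zero removed, correlations without the 2 farthest valves, and each valve left out for markers and for the named genes of the wider lists. Markers were lists for interstitial cells, cardiomyocytes, adipocytes, endothelium, macrophages, lymphocytes, erythroid, smooth muscle, Schwann and proliferating cells and chondrocytes. The genes and lists were chosen with earlier results of these data known. Counts ran from 3247091 to 5921025 per valve, and for genes with few counts, counting error adds to the spread between valves.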

Additional observations from a re-analysis of the deposited data

Results flagged for a closer look

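In 80 groups of 5 valves, 4 for each of 19 genes and for the summed cardiomyocyte markers, 3 held a valve whose gap to its nearest neighbour exceeded 0.71 of the group's range, the critical value of Dixon's test at the 95% level. Chance gives about 1 in 20 such groups. HMG2 in non-treated 1 was at 95.6 CPM, with the other non-treated valves between 45.0 and 53.4. BAZ1A in non-treated 3 was at 36.3 CPM, with the others between 29.6 and 30.3. KAT6B in dexfenfluramine 3 was at 102 CPM, with the others between 113 and 114. The cause of these values was not tested.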

How the results depend on the processing

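For serotonin against non-treated valves the count of chromatin genes called was 1, and it became 4 with DESeq2, 3 with limma-voom, 2 with svaseq and 0 with DESeq2 size factors, a minimum of 10 counts per valve, no filter on low counts, the replicate block, only the 2 groups compared, or the most abundant gene left out. It was 3 without the 2 valves that stand apart, 2 with the cardiomyocyte covariate and 2 with the identifiers that carry 1 extra zero. For the wider lists by function the count was 2, and it was 6 with DESeq2, 5 with limma-voom and 0 with DESeq2 size factors, upper-quartile scaling, a minimum of 10 counts per valve, no filter on low counts, the replicate block, only the 2 groups or the most abundant gene left out. With svaseq the counts became 8 for pergolide, in place of 22, and 5 for dexfenfluramine, in place of 25, against non-treated valves, 14 and 17 against serotonin, in place of 26 and 30, and in the wider lists 24, 17, 33 and 34 in the same order. In every one of these cases the cause was not tested. For serotonin against non-treated valves, svaseq called 1.16% of all genes, the cardiomyocyte covariate 2.22% and the fit without the 2 valves 5.53%. For the other alternatives in this paragraph the share of all genes is not given, so nothing particular to chromatin genes is read from those counts.

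With each valve left out in turn, chromatin genes called ranged from 0 to 2 for serotonin, 18 to 23 for pergolide and 22 to 29 for dexfenfluramine against non-treated valves, and from 21 to 26 and 23 to 28 against serotonin; between the drugs from 0 to 0. In the wider lists they ranged from 0 to 5, 43 to 51, 48 to 64, 44 to 51 and 49 to 55, and between the drugs from 0 to 0. With the replicate block the counts were 20, 25, 24 and 27, and in the wider lists 46, 57, 49 and 54. Shares of all genes are not given for this fit or for those with a valve left out. Nothing particular to chromatin genes is therefore read from these counts. Replicate numbers showed no sign of pairing valves as a set. Of 30 same-number pairs 6 had a correlation above 0.1, with a median of -0.0170 and a range of -0.342 to 0.492. Pairs with different numbers had a median of 7.1e-05, and their share above 0.1 is not given.

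Of 104 called values of single genes, with 2076 values over the alternatives, 1816 kept direction and call, 259 kept direction and lost the call, and 1 changed sign, CHD7 in dexfenfluramine against non-treated valves, at 0.034 with svaseq. The scaling alternatives moved the median of all genes by under 0.1 on the log2 scale. HDAC7 had 6 to 43 counts per valve, and whether more depth would change the values of genes with few counts was not tested.

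Apart from svaseq and single valves left out, calls of single genes were lost as follows. With DESeq2 the call lost was SMARCD2 for pergolide against non-treated. With limma-voom the calls lost were HDAC8 and SIRT2 for pergolide against serotonin, CHD7 for dexfenfluramine against non-treated and SMARCD2 for pergolide against non-treated. With DESeq2 size factors the calls lost were SMARCD2 for pergolide against non-treated and HMG2 for serotonin against non-treated. With upper-quartile scaling the calls lost were CHD3, SMARCC2 and HDAC8 for dexfenfluramine against serotonin, PHF20L1 for pergolide against serotonin, SMARCC2 and KMT2E for dexfenfluramine against non-treated and CHD1, SMARCA5 and SMARCD2 for pergolide against non-treated. With no filter on low counts the calls lost were CHD3, HDAC8 and KDM5B for dexfenfluramine against serotonin, HDAC8 and PHF20L1 for pergolide against serotonin, CHD7, SMARCC2 and KMT2E for dexfenfluramine against non-treated, CHD1, SMARCA5 and SMARCD2 for pergolide against non-treated and HMG2 for serotonin against non-treated. With a minimum of 10 counts per valve the calls lost were CHD3 for dexfenfluramine against serotonin, SMARCD2 for pergolide against non-treated and HMG2 for serotonin against non-treated. With the replicate block the calls lost were KAT2A, HDAC5, HDAC8 and KDM5B for dexfenfluramine against serotonin, HDAC8 and SIRT2 for pergolide against serotonin, HDAC5 and HDAC8 for dexfenfluramine against non-treated, SMARCA5 and HDAC8 for pergolide against non-treated and HMG2 for serotonin against non-treated. With only the 2 groups compared the calls lost were SMARCAD1, KAT2A, HDAC8 and KDM5B for dexfenfluramine against serotonin, PHF20L1 for pergolide against serotonin, CHD7, SMARCC2, KAT2B, HDAC5, KDM3B and KMT2E for dexfenfluramine against non-treated, SMARCA2 and SMARCD2 for pergolide against non-treated and HMG2 for serotonin against non-treated. With the most abundant gene left out the calls lost were PHF20L1 for pergolide against serotonin, SMARCD2 for pergolide against non-treated and HMG2 for serotonin against non-treated. The cause was not tested.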
